A study of Mus musculus with 58 samples.

Results

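The 9 RNA-binding protein genes followed here encode proteins known to steer alternative splicing in neurons: Khdrbs1, Khdrbs2, Khdrbs3, Rbfox1, Rbfox2, Rbfox3, Nova1, Nova2 and Ptbp2. Transcripts were counted in parvalbumin (PV) cells, GABA-releasing inhibitory interneurons, picked 1 by 1 from the ventral subiculum of mice, a region through which the hippocampus sends its output. The genes were listed by name with no threshold on a measured value, and all 9 were among the 25648 genes of the deposited count table. The cells came from PV-Cre::Ai9 mice, in which Cre recombinase driven by the parvalbumin gene switches on the Ai9 reporter, so a cell that used that gene only earlier in life is marked too. All cells carry this strain label and none names a treatment. Cytosol was drawn through a patch pipette, 1 cell a library. Of 58 cells, 54 carried the quality label Pass, 27 female and 27 male, and 4 the label Fail. The female Pass cells were taken at postnatal day (P) 40 (17 cells) and P42 (10 cells), and the male Pass cells at P35 (14 cells) and P36 (13 cells). Cells of 3 female and 4 male animals are in the series.

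Neurexins are presynaptic adhesion proteins whose messenger RNAs are cut and joined in many ways, and each alternative segment (splice site, ss) changes which postsynaptic partners the protein can hold. The exon at ss4 is the best studied: its inclusion or skipping sets binding to neuroligins, leucine-rich repeat transmembrane proteins and cerebellins. The STAR-family proteins encoded by Khdrbs1 (Sam68), Khdrbs2 (SLM1) and Khdrbs3 (SLM2) bind adenine- and uracil-rich RNA and are known to promote skipping of neurexin ss4 exons. RBFOX proteins bind GCATG in RNA, NOVA proteins bind short elements with CA at their centre, and PTBP2 binds pyrimidine-rich stretches and often represses exons. The series' title names Neurexin-3, and the question here was how much of each regulator the cells carried and whether its level went with Nrxn2 and Nrxn3 splicing.

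The ss4 exon of Nrxn3 is shown because its inclusion was compared with the regulators below. It is 90 bases long, at chr12:90199147-90199236 on the plus strand in GRCm38 with GENCODE vM21, and is printed 5′ to 3′ on the transcript strand, with capitals for a TAAA.
Nrxn3 ss4 exon: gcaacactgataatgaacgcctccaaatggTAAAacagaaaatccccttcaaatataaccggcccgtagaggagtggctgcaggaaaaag
TAAA, a short form of the STAR-family element, occurred 1 time in this exon, from base 31. Of 2071 annotated exons of the same length in protein-coding genes, 19.6% held TAAA. The exon did not hold GCATG, which 7.53% of those exons had, nor TCTT, which 30.4% had. For NOVA, 4 elements were searched: TCAT (in 30.7% of those exons), TCAC (25.5%), CCAT (31.0%) and CCAC (30.8%). The exon held none of these 4, whereas 73.2% of the 2071 held at least 1. Its GC content was 45.6%. Only the transcript strand of the exon was searched, and the flanking introns were not used here.

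The Pass cells held 2.05 to 52.3 M counts (median 11.5 M). Of the genes that mark GABA-releasing neurons in general, Gad1 had a median of 3560 CPM (counts scaled to the same total in every cell) and Gad2 346 CPM. Pvalb, the defining gene of PV cells, had a median of 86.9 CPM (1.18 to 788 CPM, at least 10 CPM in 47 of 54 cells). Genes of other cells were present too: the median was 9.07 CPM for Slc17a7 of excitatory neurons, 7.64 CPM for Sst of another interneuron class, 283 CPM for Mbp of oligodendrocytes, 53.3 CPM for C1qb of microglia and 31.0 CPM for Hba-a1 of blood. The highest cell had 428 CPM for Slc17a7, 3298 CPM for Sst, 9991 CPM for Mbp, 2593 CPM for C1qb and 15907 CPM for Hba-a1. Sst was at 10 CPM or more in 22 of 54 cells. The median was 193 CPM for Nrxn3 (54.7 to 546) and 10.2 CPM for Nrxn2 (0.303 to 75.2), or 15.3 and 0.736 CPM per kb of exon. Identical columns were not found (0 pairs). Which animal a cell came from is not in the labels, so cells of 1 sex and 1 age were added up to give 4 pools: female P40, female P42, male P35 and male P36. Pools share no animal provided that each was used at 1 age. Both female ages are above both male ages, so sex and age cannot be told apart.

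The regulators fell into a well-expressed set and a low, patchy set. Counted in CPM per kilobase of annotated exon, the scale on which genes can be compared, Rbfox1 led with a median of 29.0. Rbfox3 (10.4), Khdrbs1 (10.3), Khdrbs3 (7.78), Ptbp2 (6.99) and Rbfox2 (4.50) came next, and Nova1 (1.32), Nova2 (0.443) and Khdrbs2 (0.401) were lowest. Most steps of this order were not larger than the spread between pools. Only Rbfox1 over Rbfox3 and Rbfox2 over Nova1 had pool values per kb that did not overlap, at 27.6 to 35.7 against 8.13 to 16 and at 4.60 to 6.52 against 1.43 to 2.93. Rbfox1 lay above Rbfox3 per kb in 45 of 54 cells (83.3%, exact Clopper-Pearson 95% interval 70.7% to 92.1%), and Rbfox2 above Nova1 in 42 of 54 (77.8%, 64.4% to 88.0%). Rbfox3 lay above Khdrbs1 in 26 of 54 cells and Nova2 above Khdrbs2 in 28 of 54, so neither pair had an order. Where the longest transcript stood for gene length, Ptbp2 moved above Khdrbs3, which then lay above it in 18 of 54 cells instead of 32. These intervals cover counting of cells only and treat cells as independent draws.

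**Figure D1:**
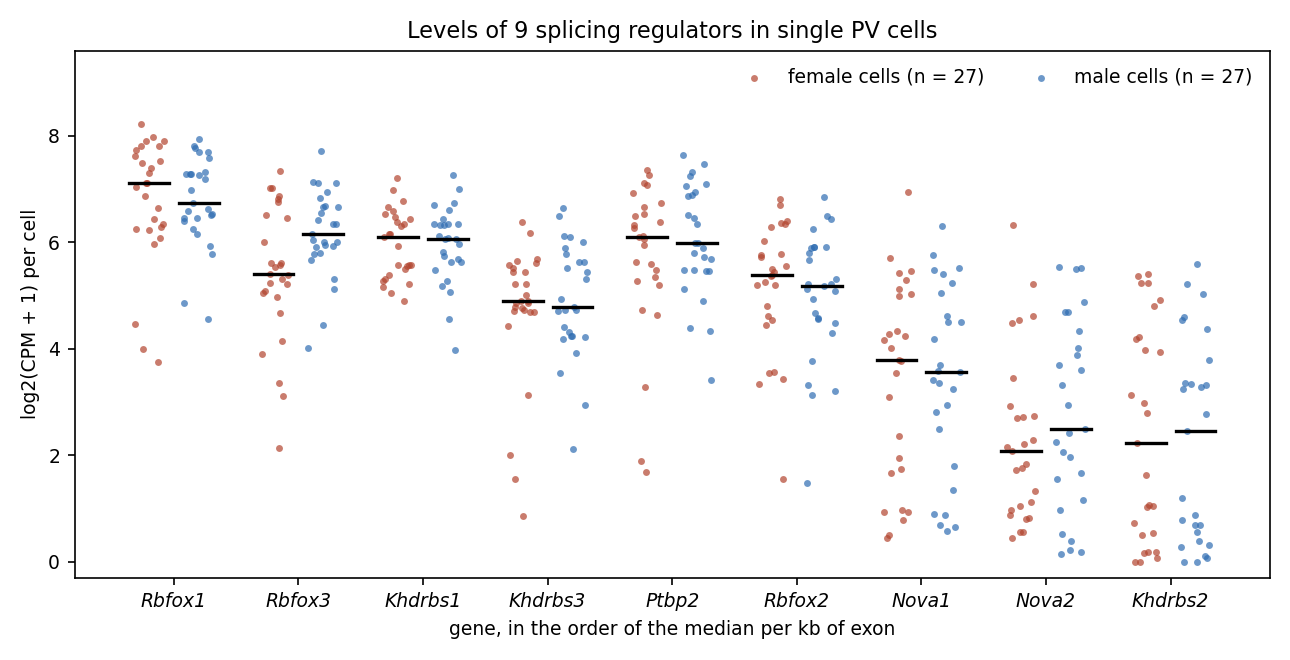
Level of each regulator in every Pass cell, as log2(CPM + 1) on the vertical axis, with female cells (red, left of each pair) and male cells (blue, right), n = 27 each; black bars are medians. Rbfox1, Rbfox3, Khdrbs1, Khdrbs3, Ptbp2 and Rbfox2 form compact clouds with a few low cells, whereas Nova1, Nova2 and Khdrbs2 run from near 0 to above 5.

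Of the Khdrbs family, Khdrbs1 (chromosome 4, 129703164 to 129742303, minus strand), the broadly expressed member, was in every cell. Its level was 14.8 CPM in the lowest cell, 66.4 CPM at the median and 153 CPM in the highest. By sex its range was 28.8 to 147 CPM in female cells (median 67.7) and 14.8 to 153 CPM in male cells (median 66.3), ranges that overlapped almost wholly. Khdrbs3 (chromosome 15, 68928420 to 69101211, plus strand), a neuronal member, ran from 0.822 through 28.5 to 98.8 CPM and reached 10 CPM in 48 of 54 cells. It had a median of 28.7 CPM in female cells and 26.7 CPM in male cells. Khdrbs2 (chromosome 1, 32172714 to 32658568, plus strand), the other neuronal member, was the family's rare one, with a median of 4.12 CPM and a highest value of 47.1 CPM in male cell 9.

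Khdrbs2 was spread widely over the cells. It was under 1 CPM in 21 of 54 cells and at 10 CPM or more in 17 (31.5%, interval 19.5% to 45.6%). It had 0 counts in 4 cells, 2 of each sex, where 3 counts would have been 0.129 to 0.646 CPM. Per kb, Khdrbs1 lay above Khdrbs2 in 54 of 54 cells and Khdrbs3 above Khdrbs2 in 53. Khdrbs1 and Khdrbs3 were closer, with Khdrbs1 above in 35 of 54 cells (64.8%, interval 50.6% to 77.3%). As a share of the family's summed CPM per kb in a cell, Khdrbs1 had a median of 53.4% (8.33% to 98.4%), Khdrbs3 40.1% (1.56% to 88.6%) and Khdrbs2 1.78% (0 to 23.9%). Khdrbs2 was the family's highest member in 0 of 54 cells, and the leading member was Khdrbs1 in 35 cells and Khdrbs3 in 19.

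Of the Rbfox family, Rbfox1 (chromosome 16, 5885355 to 7411526, plus strand), a regulator of neuronal exons, was the most abundant per kb. It ran from 12.5 through 128 to 299 CPM, with medians of 137 CPM in female cells and 106 CPM in male cells. The 3 highest cells, female cell 29 (299 CPM), female cell 13 (252 CPM) and male cell 8 (246 CPM), were of both sexes. Rbfox3 (chromosome 11, 118489762 to 118911597, minus strand) encodes the neuronal nuclear antigen NeuN. It ran from 3.39 through 60.5 to 210 CPM and reached 10 CPM in 51 of 54 cells. Rbfox2 (chromosome 15, 77078990 to 77307004, minus strand), which many tissues use, ran from 1.80 through 36.7 to 114 CPM and reached 10 CPM in 47 of 54. Rbfox1 led the family per kb in 44 of 54 cells, Rbfox3 in 9 and Rbfox2 in 1. The median share of the family sum per kb was 61.5% for Rbfox1, 24.5% for Rbfox3 and 9.88% for Rbfox2.

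The Nova genes, named for antigens of a paraneoplastic disorder, were low. Nova1 (chromosome 12, 46694517 to 46818929, minus strand) ran from 0.362 through 11.5 to 122 CPM, under 1 CPM in 11 cells and at least 10 CPM in 30 of 54. Nova2 (chromosome 7, 18925888 to 18965319, plus strand) ran from 0.109 through 3.70 to 79.5 CPM, under 1 CPM in 13 cells and at least 10 CPM in 16. Neither led reliably: Nova1 lay above Nova2 per kb in 33 of 54 cells (61.1%, interval 46.9% to 74.1%), and the share of their sum ran from 0.867% to 99.5% for Nova1 and from 0.517% to 99.1% for Nova2. Annotated exons of Nova2 share 2652 bases with Gm26821, a non-coding RNA on the opposite strand, and those of Nova1 share 310 bases with Gm33869 on the same strand. Whether counting used strand is not stated, so reads from these pairs cannot be told apart. Ptbp2 (chromosome 3, 119718742 to 119784466, minus strand), the neuronal polypyrimidine tract binding protein, ran from 2.23 through 64.2 to 198 CPM, with at least 10 CPM in 50 of 54 cells. Its relative Ptbp1, which is used outside neurons, had a median of 0.618 CPM per kb, beside 6.99 CPM per kb for Ptbp2.

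Cell-to-cell spread was larger for the low genes. The coefficient of variation (CV, the standard deviation of CPM over its mean, n = 54 cells) was 0.452 for Khdrbs1, 0.534 for Rbfox1, 0.633 for Khdrbs3, 0.636 for Rbfox3 and Ptbp2 each, and 0.661 for Rbfox2. It was 1.18 for Nova1, 1.30 for Khdrbs2 and 1.46 for Nova2. Over the 14933 genes tested the median CV was 1.06. Counting error alone would give the 9 genes CVs of 0.0305 (Rbfox1) to 0.109 (Khdrbs2), if every counted read were an independent molecule. With cells thinned to an equal total of 2.05 M counts the CV was 0.441 for Khdrbs1 and 1.33 for Khdrbs2. Set beside genes of like mean level (about 1493 genes, those in the same of 10 equal bins by mean), Khdrbs1 was among the steadier ones: 7.23% of its bin had a lower CV, and Khdrbs3 had 14.9% below it, Rbfox2 19.1% and Khdrbs2 29.1%. Rbfox1 (50.4%), Nova1 (48.5%), Nova2 (44.6%), Ptbp2 (43.5%) and Rbfox3 (43.3%) were near the middle of their bins.

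**Figure D2:**
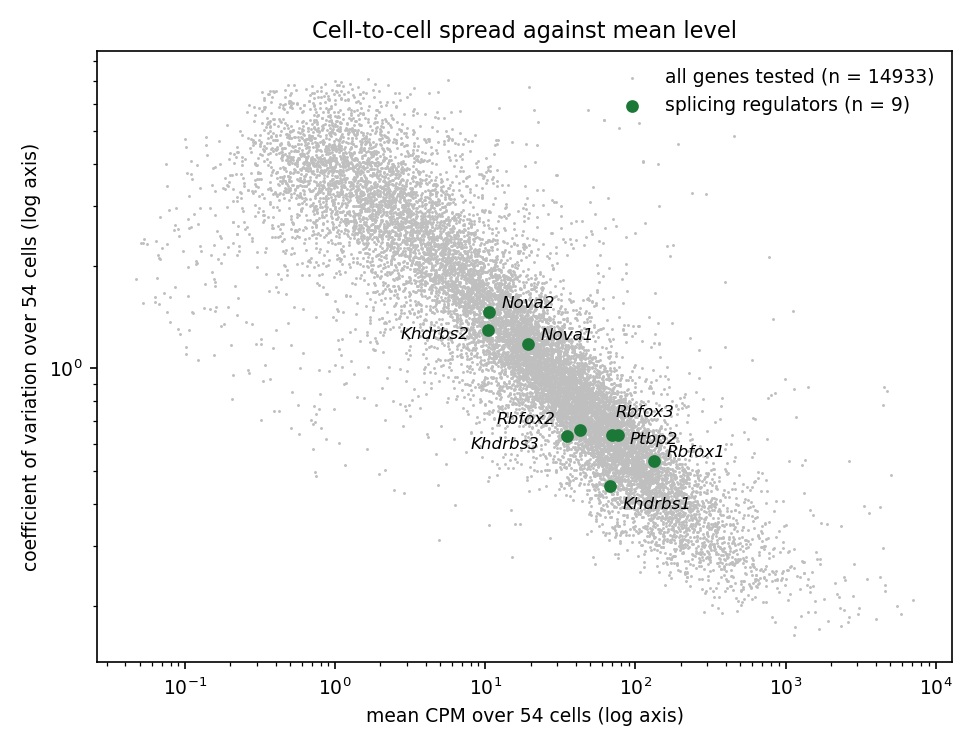
Coefficient of variation over 54 Pass cells against mean CPM, both on log axes, for all 14933 genes tested (grey) and the 9 regulators (green). The regulators lie within the cloud, Khdrbs1 at its lower edge with a CV of 0.452 and Nova2 highest of the 9 with 1.46.

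No regulator passed the test between female and male cells. Of the 9, 0 were called by the quasi-likelihood test of edgeR, Benjamini-Hochberg adjusted over all genes, in which 2 of 14933 genes (0.0134%) were called. At an unadjusted p under 0.05 the test gave 1 of 9, against 5.51% of all genes, and 3 of 9 had pools that did not overlap between the sexes, against 33.9% of all genes, a share close to that background. The 1 gene, Rbfox3, was not under 0.05 with cells thinned to an equal total, without female cell 3, without female P42 or without either male pool. DESeq2 and limma also called 0 of 9. The median log2 difference of the 9, female minus male, was 0.18, beside 0.004 over all genes tested.

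Rbfox3 had the smallest p. It was at 59.0 and 47.3 CPM in the female P40 and P42 pools, against 73.6 and 93.3 CPM in the male P35 and P36 pools. Pool levels throughout are scaled by edgeR's TMM factors (trimmed mean of M-values). Both male pools were above both female pools, and the median over cells was 41.2 CPM in female cells (3.39 to 161) and 70.2 CPM in male cells (15.2 to 210). The log2 difference, -0.65 with a standard error of 0.27, had an unadjusted p of 0.0460 and an edgeR adjusted p of 0.899. Ptbp2 was at 65.1 and 59.3 CPM in the female pools, against 85.0 and 70.2 CPM in the male pools, also without overlap (-0.32, standard error 0.26, edgeR adjusted p = 0.984). Rbfox2 was the reverse, at 53.0 and 49.0 CPM in the female pools, against 45.8 and 37.5 CPM in the male pools (0.29, standard error 0.30, edgeR adjusted p = 0.990).

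The other members overlapped between the sexes. Khdrbs1 was at 82.1 and 68.0 CPM in the female pools, against 62.8 and 69.5 CPM in the male pools (0.18, standard error 0.25, edgeR adjusted p = 0.994). Khdrbs3 (34.6 and 38.2 CPM female, 39.6 and 33.9 CPM male) and Rbfox1 (122 and 157 CPM female, 143 and 128 CPM male) had log2 differences of -0.02 and 0.04. Khdrbs2 differed more between pools of 1 sex than between the sexes, with 8.15 and 16.7 CPM for female and 5.63 and 13.2 CPM for male pools (0.40, standard error 0.74). Nova1 had 12.5 and 25.7 CPM in female pools and 14 and 18.6 CPM in male pools (0.23, standard error 0.55). Nova2 had 22 and 5.32 CPM in female pools and 13.3 and 6.10 CPM in male pools (0.49, standard error 0.83, and -0.89 without female cell 3). The sign of each of these 6 differences turned when a certain pool or cell was left out.

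Single cells weighed heavily in the sums of some genes. Female cell 3, the deepest with 52.3 M counts, held 81.9% of the Nova2 counts, 46.6% of the Khdrbs3 counts and 40.5% of the Khdrbs1 counts of the female P40 pool, beside 22.8% of all that pool's counts. Without it, in an alternative chosen after seeing the data, the log2 difference of Nova2 was -0.89 and that of Khdrbs1 -0.01. Female cell 20 held 64.0% of the Nova1 counts of female P42, and male cell 22 held 50.6% of those of male P35. The summed microglia markers ran from 24.0 to 8445 CPM in female cells (median 174) and from 5.35 to 2361 CPM in male cells (median 92.9). Excitatory neuron markers ran from 36.2 to 662 CPM in female cells (median 128) and from 24.9 to 1313 CPM in male cells (median 151). Their part in the differences between the sexes was not tested.

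**Figure D3:**
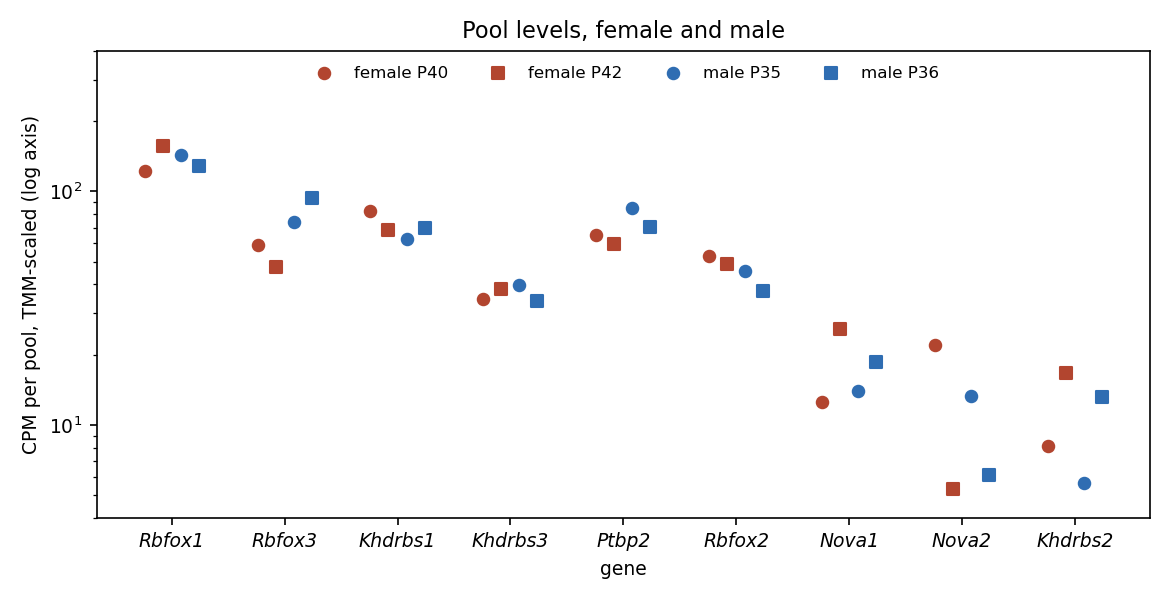
Level of each regulator in the 4 pools, as TMM-scaled CPM on a log axis: female P40 (red circle), female P42 (red square), male P35 (blue circle) and male P36 (blue square), 10 to 17 cells a pool. The male pools lie above the female pools for Rbfox3 and Ptbp2 and below them for Rbfox2, and the pools of the other 6 genes overlap.

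Splicing was read from the deposited neurexin isoform table, which gives for each cell a value for the included and for the skipped form of each site. All values are multiples of 0.25 and their unit is not stated, so the share included is the included value over the sum of both forms. The 7 sites used had a share in at least 20 Pass cells that varied between cells. Nrxn3 ss2 had a share in 52 cells but was skipped in all of them, so no relation could be computed for it. Of the 38 cells with a share at Nrxn2 ss4, 14 had included forms only, 14 skipped forms only and 10 both. The sums at this site were small, with a median of 17 over the 38 cells and at least 10 in 24 of them. Its values were whole numbers, so a cell with a sum of 1, such as male cell 1, could only read 0% or 100%. How far small sums made this pattern was not tested. Of the summed value, 67.7% was included. Nrxn3 ss4 was included almost throughout (98.1% of the summed value, 41 of 53 cells with included forms only), so its share varied little between cells. Nrxn3 ss5 was mixed in 45 of 54 cells, with 56.4% of the summed value included.

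Across cells, the levels of the STAR-family genes had a rho near 0 with Nrxn3 ss4 inclusion, and Khdrbs1 and Khdrbs2 had ones of opposite sign with Nrxn2 ss4 inclusion. Over 53 cells Spearman's rho with Nrxn3 ss4 inclusion was 0.05 for Khdrbs1, 0.07 for Khdrbs2 and 0.00 for Khdrbs3. With Nrxn2 ss4 inclusion, over 38 cells, rho was 0.34 for Khdrbs1, -0.37 for Khdrbs2 and -0.13 for Khdrbs3. Cells share animals and differ in library and depth, so these are descriptions, given with no p, and in sparse values of this kind they amount to weak relations.

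For Khdrbs2, the 3 cells with the highest level among those with a share, male cell 9 (47.1 CPM), female cell 25 (41.4 CPM) and female cell 15 (40.2 CPM), had 0%, 65.7% and 0% of Nrxn2 ss4 included. The 3 with the lowest, female cells 9 and 4 (0 CPM) and female cell 3 (0.0573 CPM), each had 100% included, on sums of 2, 117 and 24. Within the sexes rho was -0.52 in female cells (n = 20) and -0.22 in male cells (n = 18), and it was -0.40 in the 24 cells whose forms summed to at least 10. Khdrbs1 was less orderly: among cells with a share, the highest, male cell 9 (153 CPM), had 0% included and the lowest, male cell 20 (22.6 CPM), had 100%, against the sign of its rho. Its rho was 0.50 in female cells and 0.21 in male cells, and 0.49 without the 2 cells farthest from the median level.

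Rbfox2 and Ptbp2 also went with less Nrxn2 ss4 inclusion. For Rbfox2, rho was -0.38 (-0.34 in female cells, -0.44 in male cells). Among cells with a share, the 3 highest, male cell 25 (114 CPM), female cell 17 (111 CPM) and female cell 27 (103 CPM), each had 0% included, although male cell 25 and female cell 27 had sums of only 1. The 3 lowest of the cells with a share, male cell 16 (1.80 CPM), female cell 20 (1.94 CPM) and male cell 1 (8.20 CPM), each had 100%. Of these, male cell 1 had a sum of only 1. For Ptbp2, rho was -0.39, with -0.59 in female cells and -0.12 in male cells, and the highest of the cells with a share, male cell 20 (176 CPM), had 100% included on a sum of 165. In the 24 cells with sums of at least 10, rho was -0.27 for Rbfox2 and -0.22 for Ptbp2. So 4 of the 9 regulators had a rho of at least 0.3 in size with this site, against 7.20% of all genes tested; the 4 values rest on the same 38 cells.

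**Figure D4:**
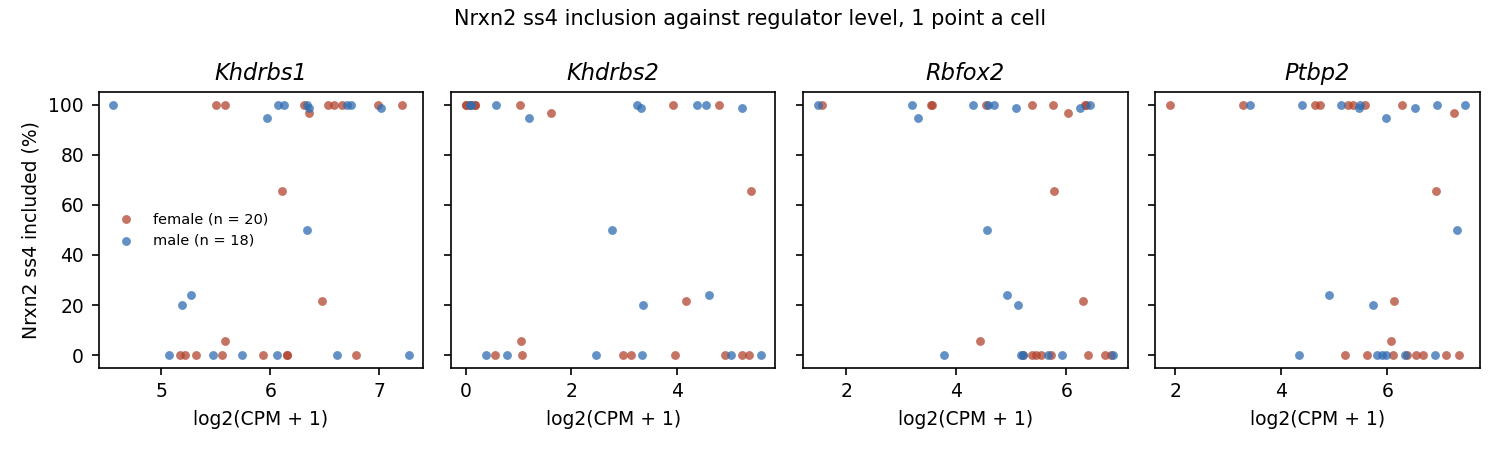
Share of Nrxn2 ss4 included (vertical axis, %) against log2(CPM + 1) of Khdrbs1, Khdrbs2, Rbfox2 and Ptbp2, 1 point a cell, female cells red (n = 20) and male cells blue (n = 18). Most points lie at 0% or 100%; rho is 0.34 for Khdrbs1, -0.37 for Khdrbs2, -0.38 for Rbfox2 and -0.39 for Ptbp2.

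Among the other sites, the relation largest in size was of Nova1 with Nrxn2 ss5, a site of which 2.54% of the summed value was included. The Spearman coefficient was -0.42 over 41 cells, -0.42 in female cells (n = 21) and -0.41 in male cells (n = 20), and 0.636% of all genes had a rho as large in size. In the 22 cells whose forms summed to at least 10 it was -0.31, and Pearson r over the 41 cells was -0.31. Nova1 level had a rho of -0.35 with the total count of the cell and the ss5 share one of 0.32, and with the total count held constant, an alternative chosen after seeing the data, rho was -0.38. Of the cells with an ss5 share, the 3 highest in Nova1, female cell 20 (122 CPM), male cell 25 (78.3 CPM) and male cell 22 (44.8 CPM), had 0% included, but so had 27 of the 41 cells. Male cell 25 had a sum of only 1. The 3 lowest, female cell 18 (0.362 CPM), female cell 13 (0.420 CPM) and male cell 20 (0.575 CPM), had 2.63%, 0% and 0%. Their sums were 76, 1 and 120. The share of female cell 18 ranked above the 27 cells at 0%, with the sign of rho. The shares of female cell 13 and male cell 20 went against that sign. Rbfox3 had a rho of 0.34 with Nrxn3 ss5 inclusion over 54 cells (0.24 in female cells, 0.35 in male cells). Rbfox1 had one of 0.30 with Nrxn3 ss1 inclusion over 49 cells, whose Pearson r was 0.18 and 0.04 without the 2 farthest cells.

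In all, 63 pairs of regulator and site were computed, with rho between -0.42 and 0.34. Of these 7 (11.1%) were at least 0.3 in size, beside 4.17% of the same relations over all genes tested (2.82% to 7.20% by site). Over all cells with a share, no regulator reached 0.3 with Nrxn3 ss3, ss4 or ss6. The summed PV interneuron markers had a rho of 0.32 with Nrxn2 ss4 inclusion and the summed excitatory markers one of -0.13. Their part in the relations with the regulators was not tested.

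**Figure D5:**
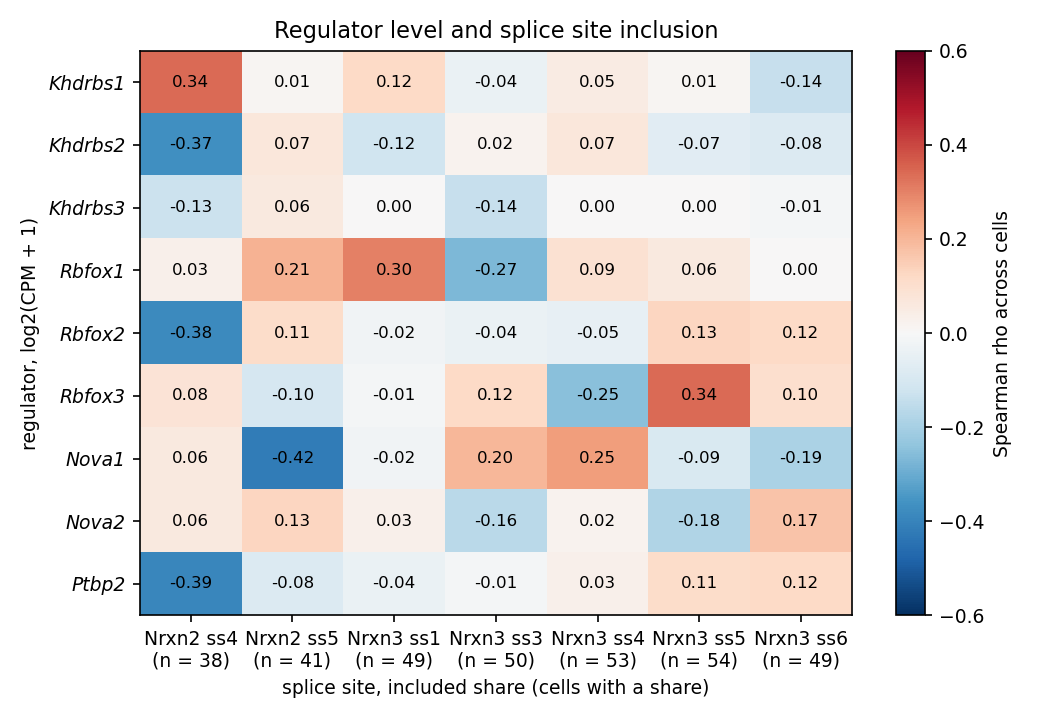
Spearman's rho across Pass cells between the level of each regulator (rows) and the share included at each splice site (columns, with the number of cells), red for positive and blue for negative. The strongest colours are in the Nrxn2 ss4 column and at Nova1 with Nrxn2 ss5 (-0.42), and the Nrxn3 ss4 column is pale.

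Most relations between the regulators were weak. Of 36 pairs of members, 1 had a rho of at least 0.3 in size over 54 cells: Khdrbs1 with Rbfox3, at -0.38 (-0.39 in female cells, -0.37 in male cells). Over all genes tested, the middle 95% of rho with a member lay within -0.31 to 0.32, so the pairs were near that background. Rbfox2 with Ptbp2 was the highest, at 0.25. Some pairs had values of opposite sign in the sexes, among them Khdrbs1 with Nova1 (-0.45 in female cells, 0.42 in male cells) and Khdrbs2 with Ptbp2 (0.31 in female cells, -0.60 in male cells). The difference between the sexes was not tested. Within the families the 7 pairs ran from -0.20 (Rbfox1 with Rbfox3) to 0.12 (Nova1 with Nova2). With the level of Nrxn2 or Nrxn3 no member passed 0.3 in size, the values running from -0.23 (Rbfox1 with Nrxn2) to 0.19 (Nova2 with either).

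With other transcripts of the cell rho reached a like size in some cases. Of 63 relations between a member and a summed marker list, 5 were at least 0.3 in size, and all 5 are given here. No share over all genes stands beside that count, so it is not read as a trait of the members. Khdrbs2 had a rho of -0.40 with Pvalb (-0.39 in female cells, -0.42 in male cells). Ptbp2 had one of 0.41 with the summed excitatory neuron markers (0.35 in female cells, 0.46 in male cells), with which Khdrbs1 had one of -0.39 (-0.20 in female cells, -0.54 in male cells). Of those 8 markers, 3 were detected in every Pass cell and 2 had a median of 0 CPM. Khdrbs3 had a rho of -0.36 with the summed PV markers (-0.20 in female cells, -0.48 in male cells), and with the summed oligodendrocyte markers Khdrbs2 had -0.33 and Nova2 0.30. With the membrane values that the labels call vrest, rm and cm, given for 49 cells, the 27 relations ran from -0.26 to 0.30, the last being Rbfox3 with cm (0.31 in female cells, 0.14 in male cells).

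The genes whose pattern across the 54 cells was most like each member's were found by rho over all genes tested. They were Prep (0.50) and Tuba8 (0.49) for Khdrbs1, Klf15 (0.56) and Krcc1 (0.53) for Khdrbs2, and Dlg1 (0.58) and ENSMUSG00000109378 (0.56) for Khdrbs3. For Rbfox1 they were Necab1 and Mblac2 (0.56 each), for Rbfox2 Trappc8 (0.51) and Setd5 (0.50), and for Rbfox3 Ggnbp2 (0.54) and Neurod2 (0.49). For Nova1 they were Plcd1 (0.58) and Mutyh (0.54), for Nova2 Spry3 (0.53) and Gm10642 (0.49), and for Ptbp2 Ccp110 (0.53) and Gm37100 (0.48). No member was among the 2 genes most like another. Mutyh (median 0.211 CPM), Gm37100 (0.153 CPM) and Neurod2 (0.695 CPM) were themselves near the limit of detection.

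The list of 59 other splicing regulators, of which 57 were tested, likewise gave no call between the sexes. The edgeR test called 0 of the 57, as did DESeq2, and 4 had an unadjusted p under 0.05, beside 5.51% of all genes, all with the higher level in female pools. That count was 1 without female cell 3, 1 without female P40, 0 without male P35, 8 without female P42, 1 with limma and 8 with DESeq2. Srsf6, a serine- and arginine-rich splicing factor, was at 149 and 109 CPM in the female pools, against 77.6 and 87.4 CPM in the male pools (0.65 on the log2 scale, standard error 0.24, edgeR adjusted p = 0.887). Ptbp1 was at 36.3 and 21.3 CPM in the female pools, against 8.16 and 13.5 CPM in the male pools (1.41, standard error 0.53, edgeR adjusted p = 0.887). For Srsf7 the log2 difference of 0.50, with a standard error of 0.19, had an edgeR adjusted p of 0.895. The median log2 difference of the 57 was 0.10, with 39 positive and 18 negative. The median level of the 57 was 9.51 CPM per kb. Of the most abundant, Hnrnpk had a median of 98.8 CPM per kb, Hnrnpa2b1 67.9 and Celf4, a neuronal CUG-binding factor, 46.3. Among these 57 and the 9 members together, Rbfox1 ranked 13 of 66 per kb, Nova1 57, Nova2 61 and Khdrbs2 62.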

How the data were processed

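The cytosol of each cell was drawn by patch pipette and Nextera XT libraries were made, per the labels' protocols. STAR, edgeR and GRCm38 are named in the submitters' processing notes; versions, annotation and strand setting were not given. Raw whole-number counts of 25648 genes in 58 cells were deposited, and 0 columns were unmatched. The deposited isoform table holds a signal of unstated unit. A separate normalized table was not used.

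Pass cells were summed into 4 pools. The 14933 genes that had a count in 10 or more Pass cells and passed filterByExpr were tested with edgeR 4.0.16 (R 4.3.3; TMM, quasi-likelihood F test, two-sided, Benjamini-Hochberg adjusted p under 0.05), which gives 2 pools a sex; p-values measure the spread between these pools only. Standard errors are the log2 difference over the square root of F. DESeq2 1.42.0 and limma 3.58.1 (pseudocount 1) were alternatives. Levels per cell are CPM of its total; lengths and positions are from GENCODE vM21. The fit and the correlations were tested on simulated data. All 9 members are named; other names are the 2 genes most alike, and of the other regulators the 3 most abundant and the 3 of smallest p. Single cells were named after their values were seen. The members and lists were chosen with earlier results of these data known. Reads without molecular identifiers are not independent molecules. The intervals cover counting of cells only. The sequence of another exon is not reported here.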

Additional observations from a re-analysis of the deposited data

Results flagged for a closer look

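The 4 Fail cells, 2 female and 2 male, entered none of the comparisons above, only the alternative fit with them added. They are listed for that reason and held 0.545 to 5.08 M counts. Khdrbs2 and Nova2 were each detected in 3 of the 4, and the other regulators in all 4. The median over these cells was 76.7 CPM for Khdrbs1, 1.44 CPM for Khdrbs2 and 23.7 CPM for Khdrbs3. It was 95.3 CPM for Rbfox1, 35.5 CPM for Rbfox2 and 76.5 CPM for Rbfox3, and 13.7 CPM for Nova1, 8.13 CPM for Nova2 and 60.5 CPM for Ptbp2. The Khdrbs2 value rested on 11 counts over the 4 cells, with none in female cell 10. Ptbp2 varied little among them, at 60.5 CPM in both female cells and at 52.6 and 67.1 CPM in the male cells. Nova2 had no count in male cell 4 and 28.7 CPM in male cell 3.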

How the results depend on the processing

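No regulator was called between female and male pools under any of the 13 alternatives, and the adjusted p of a member ranged from 0.496 to 1. Over all genes the 2 calls became 179 with DESeq2 and 111 with no filter on low counts, and with 1 pool left out 26 (without female P40), 6 (without female P42), 1 (without male P35) and 0 (without male P36, where edgeR gave 421 genes an unadjusted p under 0.05). Of 117 log2 differences of members under an alternative, 104 kept their sign and 13 did not. Leaving out female P40 gave 0.06 for Khdrbs3 and -0.86 for Nova2; leaving out female P42 gave -0.19 for Khdrbs2, -0.14 for Rbfox1 and -0.37 for Nova1. Leaving out male P35 gave -0.08 for Khdrbs2 and 0.10 for Khdrbs3, and leaving out male P36 gave -0.04 for Rbfox1. The lone pool is then assumed to vary like those of the other sex. With limma on mean log2(CPM + 1) Nova1 was at -0.12 and Nova2 at -0.48, thinning put Nova2 at -0.45, and leaving out female cell 3 gave -0.01 for Khdrbs1 and -0.89 for Nova2. Rbfox3 (-0.84 to -0.47) and Ptbp2 (-0.45 to -0.17) stayed lower and Rbfox2 (0.12 to 0.45) higher in female pools under all 13. The cause of these changes was not tested, except that in these fits the cell or pool named was absent. The 7 relations with a rho of at least 0.3 in size kept their sign under all 6 alternatives to rho, but 4 of 7 stayed at 0.3 in cells whose forms summed to at least 10, 5 without the 2 farthest cells, 5 in female cells and 3 in male cells. Of all 63 relations, 10 reached 0.3 in size when computed in female cells and 13 when computed in male cells. In cells whose forms summed to at least 10, 6 did. Among these were Rbfox1 with Nrxn3 ss3 (-0.35, n = 36) and Nova1 with Nrxn3 ss6 (-0.32, n = 37), which were below 0.3 over all cells. All 36 medians under thinning, TMM-scaled cells or 1 sex moved by less than the standard deviation over cells. For Khdrbs2 (13.4 CPM), Nova1 (22.7 CPM) and Nova2 (15.5 CPM) that exceeds the median itself, so even a fall to 0 would have passed. Rbfox3, with medians of 41.2 CPM in female and 70.2 CPM in male cells, also passed. All 36 coefficients of variation moved by less than their standard deviation between pools. Per kb of the longest transcript 3 of 9 medians moved by more than the standard deviation over cells, to 17.8 for Khdrbs1, 19.2 for Rbfox3 and 15.9 for Ptbp2. No paired analysis was possible because the labels give no replicate numbers, and the numbers used here only name cells and pools.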
